A study of Homo sapiens with 24 samples.

Results

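TEP1, PDCD11 and TOPBP1 are 3 mRNAs, of 28307 genes in the count table, that were recovered with both GFP-tagged RUVBL1 and GFP-tagged RPAP3 from untreated cells and that encode very large proteins. They were chosen for that recovery, so their values in untreated cells are a description and carry no test. TEP1 (gene ID 7011) is encoded on the minus strand of chromosome 14 at 20365667 to 20413501, PDCD11 (gene ID 22984) on the plus strand of chromosome 10 at 103396626 to 103446294, and TOPBP1 (gene ID 11073) on the minus strand of chromosome 3 at 133600238 to 133661941. Positions are those of the NCBI gene table for GRCh38.p14, and the reads had been placed on hg38. All 3 are protein-coding genes, and the counts are of whole genes. The TOPBP1 gene overlaps LOC124909487, on the other strand, over 716 bp, and reads from that stretch could not be told apart without the strand setting of the counting.

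TEP1 is a WD-repeat protein of the vault particle, a large barrel-shaped ribonucleoprotein of the cytoplasm, and it was first described as a protein that binds telomerase RNA. PDCD11, the human counterpart of yeast Rrp5, is a nucleolar protein of many S1 RNA-binding repeats that is needed for processing of the ribosomal RNA precursor. TOPBP1 is a scaffold of many BRCT repeats, modules that bind phosphorylated proteins. It activates the checkpoint kinase ATR and takes part in the firing of replication origins. RUVBL1 is an AAA+ ATPase that works with RUVBL2. Together with RPAP3 and PIH1D1 the pair forms R2TP, a co-chaperone of HSP90 that assembles large complexes such as PIKK kinases, RNA polymerases and box C/D snoRNPs. An mRNA can come down with a chaperone through the protein chain that is still on the ribosome. Puromycin enters the growing chain and releases it from the ribosome, so comparing recovery with and without puromycin asks whether it needed intact translation.

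RNA was sequenced after immunoprecipitation from HCT116, a human colorectal carcinoma cell line, in which the RUVBL1 or the RPAP3 gene carried a GFP knock-in. The labels do not say whether each line was 1 clone. Lysates were passed over beads coupled to a GFP binder, here GFP beads, or over agarose beads without it, here uncoupled beads, which give the background. The RUVBL1 line was left untreated, given puromycin (100 µg/mL for 30 min), given CB-6644, an inhibitor of RUVBL1/2 ATPase activity (0.5 µM for 16 h), or given both drugs. The RPAP3 line was left untreated or given puromycin at the same dose and time. Each line, treatment and bead type had 2 libraries, 24 libraries in 12 groups, and no group came from cells without a GFP tag. Whether the 2 libraries of a group were separate cultures is not in the labels. The p-values therefore cover the spread between libraries and no more, and that spread may be technical. Levels below are CPM, read counts scaled by depth and composition, given as the mean ± SD of 2 libraries, and transcript lengths were not used, so levels of different genes are not compared. Enrichment, on the log2 scale, sets the GFP beads against the uncoupled beads given the same treatment. Its standard error (SE) comes from the fit and pools the spread of all libraries of a line. The adjusted p is that of edgeR's quasi-likelihood test with Benjamini-Hochberg adjustment over all genes, and a gene is called at an adjusted p under 0.05.

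Total counts were 9019665 to 33051512 per RUVBL1 library and 30844089 to 50394245 per RPAP3 library. The lowest raw count of any of the 3 mRNAs in a library was 148, for TEP1. On the RUVBL1 GFP beads, replicate 2 after CB-6644 (9019665 counts) and replicate 1 after both drugs stood apart from the other RUVBL1 libraries on the first principal component, and replicate 2 of the untreated uncoupled beads on the next. Of 8 colon epithelial markers, 6 had at least 227 counts in every library, while VIL1 and LGALS4 reached at most 29 and 14. The summed level of that list was 1440 to 5407 CPM on GFP beads and 1552 to 5256 CPM on uncoupled beads. Markers of blood, stromal and liver cells summed to 7.48 to 43.4 CPM on GFP beads and 5.76 to 13.9 CPM on uncoupled beads, nearly all of it COL1A1, and the other 9 of these 10 genes had at most 27 counts in any library. The part of COL1A1 or of its source in the results was not tested.

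In untreated cells the GFP beads held several-fold more of all 3 mRNAs than the uncoupled beads with either bait. TEP1 stood at 169 and 63.3 CPM in replicates 1 and 2 of the RUVBL1 GFP beads, against 21.6 and 13.9 CPM on uncoupled beads. In the RPAP3 line its GFP-bead libraries A and B held 55.8 and 80.2 CPM, against 9.52 and 13.3 CPM. Both GFP libraries lay above both uncoupled libraries in each line, the lowest GFP library being 2.94 times the highest uncoupled library with RUVBL1 and 4.20 times with RPAP3. The enrichment of TEP1 was 2.68 ± 0.50 on the log2 scale (SE, n = 2 against 2) with RUVBL1, a 6.42-fold difference, and 2.60 ± 0.24 with RPAP3, 6.08-fold.

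PDCD11 held 893 and 247 CPM on RUVBL1 GFP beads, against 131 and 83.7 CPM on uncoupled beads. With RPAP3 the GFP libraries held 259 and 257 CPM, against 75.1 and 85.9 CPM. The 2 RPAP3 GFP libraries were thus almost equal, while the RUVBL1 ones lay far apart, and in neither line did the bead types overlap. PDCD11 enrichment was 2.39 ± 0.41 (5.23-fold) with RUVBL1 and 1.72 ± 0.14 (3.28-fold) with RPAP3. TOPBP1 held 318 and 127 CPM on RUVBL1 GFP beads, against 52.2 and 52.1 CPM on uncoupled beads. With RPAP3 it held 176 and 130 CPM on GFP beads, against 52.2 and 54.2 CPM. Its uncoupled libraries were close to each other in both lines and its GFP libraries all lay above them. TOPBP1 enrichment was 2.07 ± 0.31 (4.20-fold) with RUVBL1 and 1.56 ± 0.14 (2.95-fold) with RPAP3. Over all genes, 0.914% were called higher on GFP beads in untreated RUVBL1 cells and 1.53% in untreated RPAP3 cells. Both GFP libraries lay above both uncoupled ones for 19.1% and 14.5% of genes. Since the mRNAs were chosen on these comparisons, nothing is read from those shares.

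**Figure D1:**
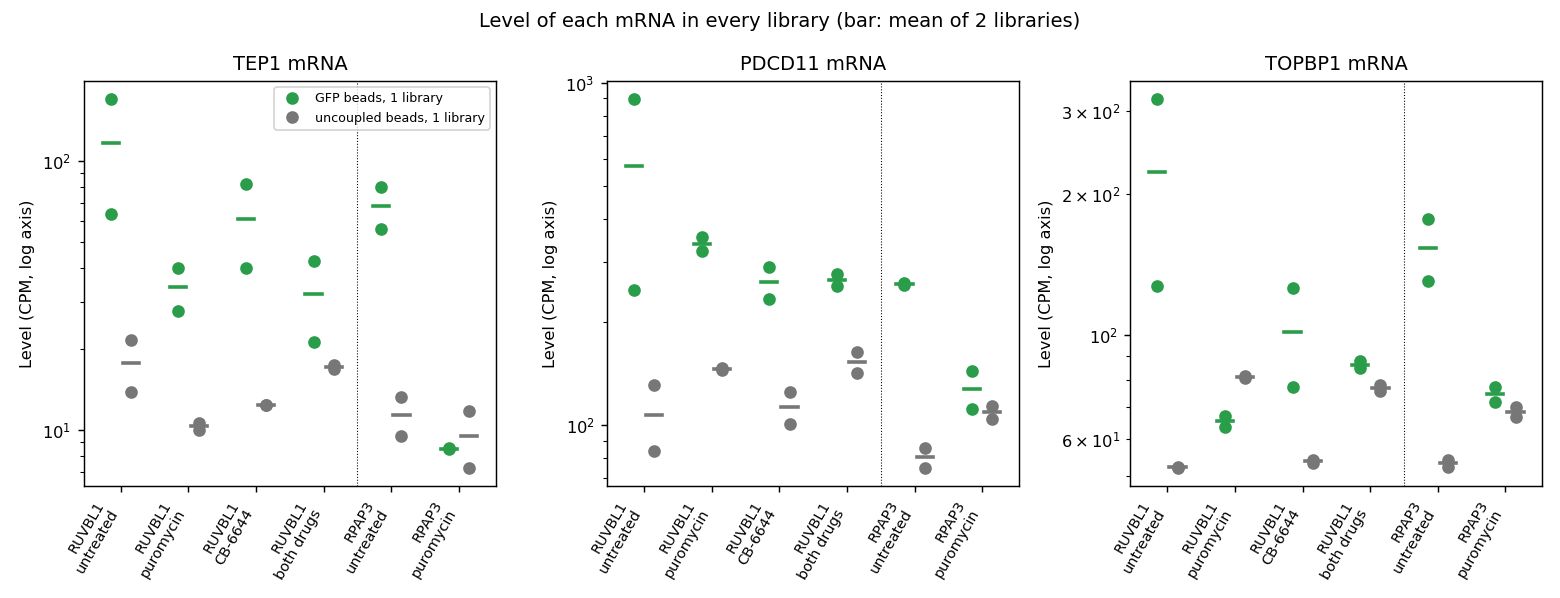
Level of TEP1, PDCD11 and TOPBP1 in CPM (log axis) in each of the 24 libraries, by line and treatment. Green points are single GFP-bead libraries, grey points single uncoupled-bead libraries and short bars the means of 2. GFP beads lie above uncoupled beads in untreated cells of both lines. After puromycin the bead types overlap for TEP1 and PDCD11 with RPAP3, and TOPBP1 lies lower on GFP beads with RUVBL1.

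The replicates of the untreated RUVBL1 GFP beads differed in the same direction for all 3 mRNAs. Replicate 1 was 2.67 times replicate 2 for TEP1, 3.61 times for PDCD11 and 2.50 times for TOPBP1, while the median ratio over all genes was 0.982. Over the 37 mRNAs called higher with both baits in untreated cells, the median ratio was 1.99, and replicate 1 was the higher for 37 of 37. Without replicate 1 the untreated RUVBL1 enrichments were 1.81 for TEP1, 1.19 for PDCD11 and 1.27 for TOPBP1. The 2 RPAP3 GFP libraries showed no such shift, with replicate A the higher for 15 of the 37 and a ratio of 0.696 for TEP1, 1.01 for PDCD11 and 1.36 for TOPBP1.

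With RPAP3, none of the 3 mRNAs was called higher on GFP beads after puromycin. TEP1 stood at 8.55 and 8.47 CPM on GFP beads, against 7.25 and 11.8 CPM on uncoupled beads. The GFP libraries lay between the 2 uncoupled ones. Its enrichment was -0.12 ± 0.25 (adjusted p = 0.999). PDCD11 stood at 111 and 143 CPM on GFP beads and 104 and 114 CPM on uncoupled beads, so the bead types overlapped, and its enrichment was 0.25 ± 0.14 (adjusted p = 0.999). TOPBP1 stood at 77.5 and 72.0 CPM on GFP beads and 70.0 and 66.8 CPM on uncoupled beads. Its bead types did not overlap, but the lowest GFP library was only 1.03 times the highest uncoupled one, and the enrichment was 0.16 ± 0.14 (adjusted p = 0.999). By edgeR 0 of the 3 had an unadjusted p under 0.05 (lowest 0.0829, for PDCD11), and DESeq2 called 0. Over all genes, 0.46% were called higher in this comparison, and 15.1% had both GFP libraries above both uncoupled libraries.

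Against untreated RPAP3 cells, enrichment after puromycin changed by -2.72 ± 0.34 on the log2 scale for TEP1, -1.46 ± 0.20 for PDCD11 and -1.40 ± 0.19 for TOPBP1. These values subtract the enrichment on which the mRNAs were chosen and so carry no test. The GFP side carried most of each change. The mean TEP1 level on GFP beads changed by -3.00 on the log2 scale and on uncoupled beads by -0.26. For PDCD11 these changes were -1.02 on GFP beads and 0.44 on uncoupled beads, and for TOPBP1 -1.04 and 0.36. These are levels of RNA held on beads, and RNA of the cells before the beads was not among the libraries. In bulk samples, fewer cells with an mRNA and less of it per cell cannot be told apart.

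With RUVBL1 after puromycin, TEP1 was called higher on GFP beads, PDCD11 lay just outside the threshold, and TOPBP1 was lower on GFP beads in both libraries without passing the test. No test compared the mRNAs with each other, and the enrichments of TEP1 and PDCD11 lay within their errors of each other. TEP1 stood at 27.8 and 39.9 CPM on GFP beads and 10.0 and 10.6 CPM on uncoupled beads. The bead types were well apart, the lowest GFP library being 2.61 times the highest uncoupled one. TEP1 enrichment was 1.71 ± 0.49, 3.27-fold (adjusted p = 0.0375), in a comparison in which 9.95% of genes were called higher, 1590 higher against 611 lower. With upper-quartile scaling that split was 1361 against 1181. The TEP1 call was near the threshold: its adjusted p was 0.0545 with upper-quartile scaling, 0.0533 with total-count scaling and 0.0659 to 0.273 with any 1 of the 4 libraries left out, over enrichments of 1.41 to 1.95.

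PDCD11 stood at 323 and 353 CPM on GFP beads after puromycin, against 144 and 147 CPM on uncoupled beads. The lowest GFP library was 2.20 times the highest uncoupled one. PDCD11 enrichment was 1.21 ± 0.40, 2.31-fold (adjusted p = 0.0539), and it was called in 4 of 13 alternative settings, among them DESeq2 (adjusted p = 0.00691, over a range of 5.29e-06 to 0.287). TOPBP1 stood at 67.2 and 63.6 CPM on GFP beads and 81.9 and 80.7 CPM on uncoupled beads. Both GFP libraries were below both uncoupled libraries, the nearest being 67.2 CPM on GFP beads and 80.7 CPM on uncoupled beads. How many of all genes lay below in this way was not counted, so nothing is read from it. TOPBP1 enrichment was -0.32 ± 0.29 (adjusted p = 0.53). Both GFP libraries lay above both uncoupled ones, by any margin, for 31.2% of all genes in this comparison, so lack of overlap alone was common. How many genes lay as far apart as TEP1 and PDCD11 was not counted. By enrichment TEP1 ranked 571 and PDCD11 1308 of 15976 genes.

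Against untreated RUVBL1 cells the changes with puromycin were -0.97 ± 0.67 for TEP1, -1.18 ± 0.56 for PDCD11 and -2.39 ± 0.42 for TOPBP1, again with no test. On GFP beads the mean levels changed by -1.78 for TEP1, -0.75 for PDCD11 and -1.77 for TOPBP1. On uncoupled beads they changed by -0.78, 0.44 and 0.64. TEP1 was thus lower on both bead types after puromycin, while PDCD11 and TOPBP1 were lower on GFP beads and higher on uncoupled beads. Without replicate 1 of the untreated GFP beads the changes in enrichment were -0.10 for TEP1, 0.022 for PDCD11 and -1.59 for TOPBP1.

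The difference between the baits after puromycin was tested in the fit of all 24 libraries. RUVBL1 enrichment minus RPAP3 enrichment was 1.87 ± 0.67 for TEP1 (unadjusted p = 0.0149, adjusted p = 0.14), 0.99 ± 0.51 for PDCD11 (adjusted p = 0.301) and -0.44 ± 0.37 for TOPBP1 (adjusted p = 0.573). None was called, against 4.45% of all genes called in either direction, 664 higher with RUVBL1 and 79 lower (490 and 221 with upper-quartile scaling). With TEP1 above the threshold in one line and not in the other, a difference between the lines was therefore not shown by this test. Fitted on the 8 libraries compared alone, TEP1 (adjusted p = 0.000713) and PDCD11 (adjusted p = 0.00162) were called higher with RUVBL1. Over all alternatives the adjusted p of TEP1 ranged from 0.000713 to 0.422.

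**Figure D2:**
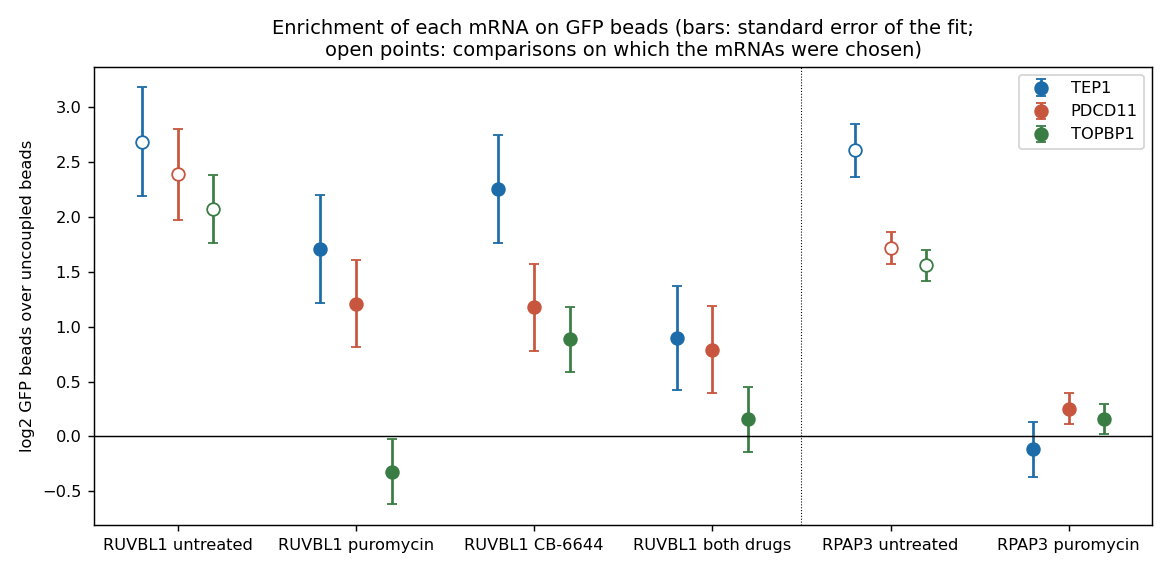
Enrichment of TEP1, PDCD11 and TOPBP1 (log2 of GFP beads over uncoupled beads, n = 2 against 2 libraries) in each line and treatment, with the standard error of the fit as bars. Open points mark the untreated comparisons on which the mRNAs were chosen. After puromycin TEP1 was 1.71 with RUVBL1 and -0.12 with RPAP3, and TOPBP1 was -0.32 and 0.16.

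After CB-6644, which was given to the RUVBL1 line only, all 3 mRNAs had both GFP libraries above both uncoupled libraries, and TEP1 was called higher. TEP1 stood at 40.1 and 82.0 CPM on GFP beads, against 12.3 and 12.4 CPM on uncoupled beads. The lowest GFP library was 3.24 times the highest uncoupled one, although the higher GFP library was replicate 2, which stood apart. TEP1 enrichment was 2.26 ± 0.49, 4.78-fold (adjusted p = 0.0392), where 1.87% of all genes were called higher. Without GFP replicate 2 it was 1.68 (adjusted p = 0.297). Leaving out uncoupled replicate 1 or 2 also ended the call (adjusted p = 0.258 and 0.339), while without GFP replicate 1 it was 2.67 (adjusted p = 0.01). Over the alternatives its adjusted p ranged from 7.19e-07 to 0.339.

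PDCD11 stood at 233 and 290 CPM on GFP beads after CB-6644 and at 125 and 100.3 CPM on uncoupled beads. Its lowest GFP library was 1.87 times the highest uncoupled one, and its enrichment was 1.18 ± 0.40, 2.26-fold (adjusted p = 0.109). TOPBP1 stood at 126 and 77.4 CPM on GFP beads, with the lower value in replicate 2, against 54.1 and 53.3 CPM on uncoupled beads. Its enrichment was 0.89 ± 0.30, 1.85-fold (adjusted p = 0.0986). Without the 3 libraries that stood apart, the enrichments were 1.67 for TEP1, 1.03 for PDCD11 and 1.20 for TOPBP1, none of them called (adjusted p = 0.145, 0.513 and 0.201). Without GFP replicate 1 alone, TOPBP1 was at 0.46 (adjusted p = 0.332, over a range of 0.00601 to 0.433). Both GFP libraries lay above both uncoupled ones for 24.3% of all genes. Calls over all genes here were 298 higher and 89 lower, and 308 and 176 with upper-quartile scaling. With total-count scaling they were 771 and 47, and the median of all genes moved from 0.019 to 0.26. TOPBP1 was called under that scaling (adjusted p = 0.0344), and all 3 mRNAs were called with DESeq2, without a filter on low counts, and with all 24 libraries in the fit.

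Against untreated cells the enrichments after CB-6644 differed by -0.42 ± 0.67 for TEP1, -1.21 ± 0.56 for PDCD11 and -1.18 ± 0.42 for TOPBP1, values without a test. Uncoupled-bead levels of PDCD11 and TOPBP1 changed by 0.07 and 0.04 with CB-6644 and their GFP-bead levels by -1.12 and -1.13. TEP1 changed by -0.93 on GFP beads and by -0.52 on uncoupled beads. With replicate 1 of the untreated GFP beads left out, the change in enrichment was 0.44 for TEP1, the opposite direction, -0.018 for PDCD11 and -0.39 for TOPBP1.

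After both drugs none of the 3 mRNAs was called. TEP1 stood at 42.6 and 21.3 CPM on GFP beads, against 17.5 and 16.9 CPM on uncoupled beads. The higher GFP value was from replicate 1, which stood apart. TEP1 enrichment was 0.89 ± 0.47, 1.86-fold (adjusted p = 0.629). PDCD11 stood at 277 and 254 CPM on GFP beads and 142 and 164 CPM on uncoupled beads, an enrichment of 0.79 ± 0.39, 1.73-fold (adjusted p = 0.608). TOPBP1 stood at 87.9 and 84.9 CPM on GFP beads and 76.1 and 78.2 CPM on uncoupled beads, an enrichment of 0.16 ± 0.29 (adjusted p = 0.897). All 3 had both GFP libraries above both uncoupled ones, as did 22.7% of all genes, but for TOPBP1 the lowest GFP library was 1.09 times the highest uncoupled one. Over all genes 0.557% were called higher. Without the 3 libraries that stood apart, TEP1 was at 0.26, PDCD11 at 0.69 and TOPBP1 at 0.09, and without GFP replicate 1 alone TEP1 was also at 0.26. By edgeR 0 of the 3 had an unadjusted p under 0.05 (lowest 0.0621, for PDCD11), and DESeq2 called 0.

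The effect of each drug in the presence of the other used libraries other than the untreated ones and was tested. It is not the interaction of the drugs, which would need the untreated enrichment and was not tested. Adding puromycin to CB-6644 changed enrichment by -1.36 ± 0.67 for TEP1, -0.39 ± 0.55 for PDCD11 and -0.73 ± 0.42 for TOPBP1 (adjusted p = 1 for each). With any 1 library left out these ran from -1.99 to -0.79, from -0.56 to -0.23 and from -1.06 to -0.32. Of all genes 0.0501% were called in either direction. On uncoupled beads the levels changed by 0.48, 0.44 and 0.52 and on GFP beads by -0.94, 0.02 and -0.23, so the PDCD11 level on GFP beads was nearly the same with and without puromycin once CB-6644 was present. Adding CB-6644 to puromycin changed enrichment by -0.81 ± 0.67 for TEP1 (adjusted p = 0.826), -0.42 ± 0.55 for PDCD11 (adjusted p = 0.902) and 0.48 ± 0.42 for TOPBP1 (adjusted p = 0.837). With any 1 library left out these ran from -1.44 to -0.39, from -0.52 to -0.32 and from 0.42 to 0.52. In that comparison 0.106% of genes were called. In both comparisons 0 of the 3 had an unadjusted p under 0.05 by edgeR, and DESeq2 called 0.

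The order of group means differed between the mRNAs. For TEP1 in the RUVBL1 line, GFP-bead levels ran from 116 ± 75.0 CPM (SD, n = 2) in untreated cells through 61.1 ± 29.6 after CB-6644 and 33.9 ± 8.56 after puromycin to 31.9 ± 15.1 after both drugs. The uncoupled groups followed, from 17.7 ± 5.42 CPM untreated to 10.3 ± 0.46 after puromycin. Untreated and CB-6644 GFP libraries overlapped, as did those of puromycin and both drugs. The lower CB-6644 GFP library (40.1 CPM) also lay below the higher GFP library after both drugs (42.6 CPM). The lower GFP library after both drugs (21.3 CPM) lay just below the higher untreated uncoupled library (21.6 CPM), so these groups overlapped too. In the RPAP3 line the untreated GFP beads stood at 68.0 ± 17.2 CPM, and the other 3 groups lay between 8.51 ± 0.06 and 11.4 ± 2.66 CPM and overlapped with their neighbours.

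For PDCD11 the RUVBL1 GFP-bead order was untreated (570 ± 457 CPM), puromycin (338 ± 21.4), both drugs (265 ± 15.8) and CB-6644 (262 ± 40.0). The untreated group overlapped with each treated GFP group, its lower library (247 CPM) lying below those of puromycin and both drugs. That library was also within the CB-6644 range (233 to 290 CPM). Both drugs overlapped with CB-6644. Its uncoupled groups lay at 107 ± 33.3 to 153 ± 15.2 CPM, all below. With RPAP3 the order was untreated GFP (258 ± 1.48), puromycin GFP (127 ± 22.6), puromycin uncoupled (109 ± 6.58) and untreated uncoupled (80.5 ± 7.62), with overlap only between the 2 puromycin groups. For TOPBP1 with RUVBL1, untreated GFP beads (223 ± 135 CPM) stood above CB-6644 (101 ± 34.1) and both drugs (86.4 ± 2.10), which overlapped. The lower untreated library (127.0 CPM) was barely above the higher CB-6644 library (125.6 CPM). Puromycin GFP beads (65.4 ± 2.55) lay among the uncoupled groups, below puromycin (81.3 ± 0.79) and both drugs (77.2 ± 1.52) and above CB-6644 (53.7 ± 0.52) and untreated (52.2 ± 0.09). With RPAP3, TOPBP1 stood at 153 ± 32.8 on untreated GFP beads, 74.8 ± 3.87 on puromycin GFP beads, 68.4 ± 2.32 on puromycin uncoupled beads and 53.2 ± 1.40 on untreated uncoupled beads.

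Of 14748 genes tested in both lines, 37 were called higher with both baits in untreated cells. By untreated enrichment TEP1, PDCD11 and TOPBP1 ranked 14, 17 and 20 among them with RUVBL1 and 13, 18 and 24 with RPAP3, near the middle. After puromycin with RUVBL1 the 37 had a median enrichment of 0.73 (range -0.47 to 1.71). Of them 14 were called higher and 0 lower, against 9.95% and 3.82% of all genes. TEP1 (1.7071) and EFTUD2 (1.7028) then headed the 37, a gap far inside the SE of TEP1, while PDCD11 ranked 8 and TOPBP1 ranked 36. With RPAP3 their median was 0.14, and 3 were called higher, against 0.46% of all genes. The ranks were 35 for TEP1, 11 for PDCD11 and 17 for TOPBP1. TEP1 thus lay among the highest of the 37 with one bait and among the lowest with the other, where values lay close together. In the difference between baits after puromycin TEP1 ranked 1 of 37, PDCD11 11 and TOPBP1 35, around a median of 0.67. After CB-6644 all 37 were above 0, with a median of 1.18 and 14 called higher, against 1.87% of all genes. TEP1 ranked 8, PDCD11 19 and TOPBP1 23. After both drugs the median was 0.52 and 1 was called higher, against 0.557% of all genes. Since all 37 were chosen on untreated enrichment, these counts describe the list and are no test of it.

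**Figure D3:**
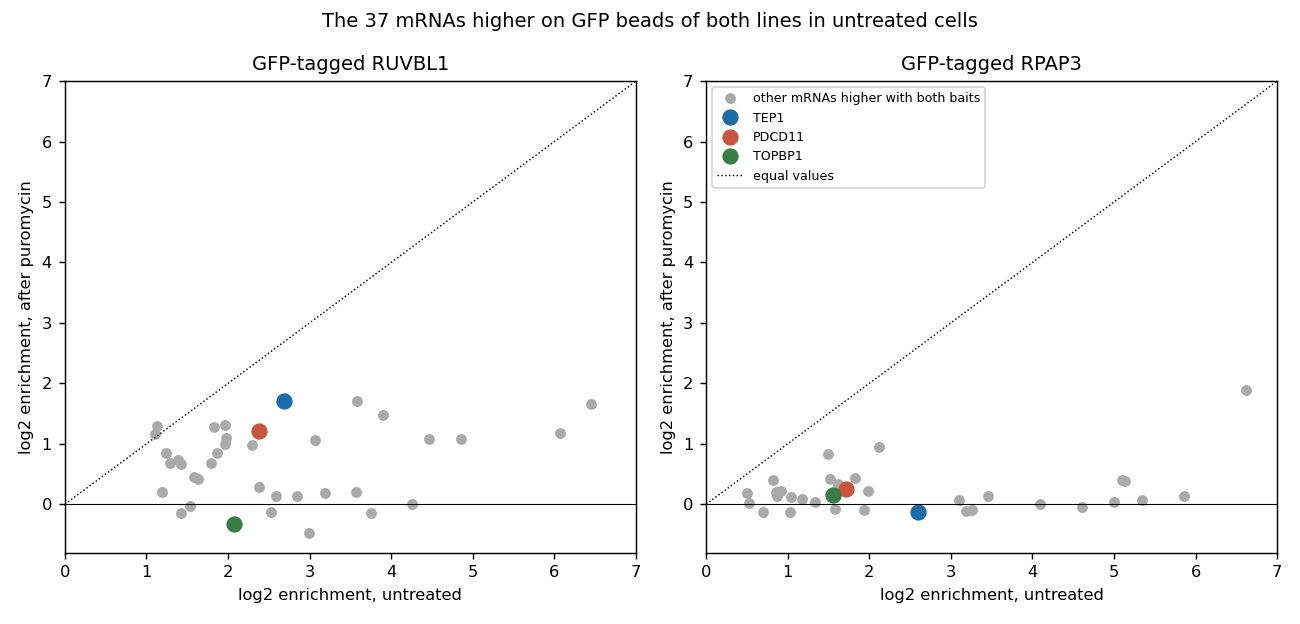
Enrichment after puromycin against enrichment in untreated cells (log2 of GFP beads over uncoupled beads) for the 37 mRNAs called higher with both baits in untreated cells, RUVBL1 on the left and RPAP3 on the right. The dotted line marks equal values. TEP1 is among the highest of the 37 after puromycin with RUVBL1 (1.71) and near 0 with RPAP3 (-0.12), while TOPBP1 lies near 0 with both (-0.32 and 0.16).

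The RNAs of each protein's known partners were followed in lists that include TEP1, PDCD11 or TOPBP1 itself. The untreated calls of these mRNAs follow from their choice and are no test. Untreated shares of lists that count them are partly fixed by it. Of 7 vault genes, 5 were tested with RUVBL1 and 4 with RPAP3. In untreated cells TEP1 was the 1 called higher with each bait, which follows from its choice on these comparisons. MVP, the major vault protein that forms the shell, had an untreated enrichment of -0.42 with RUVBL1 and 0.01 with RPAP3, and PARP4, the vault's ADP-ribosyltransferase, of -0.28 and 0.32. After puromycin 2 of 5 vault genes were called higher with RUVBL1, TEP1 and MVP (0.94 ± 0.28, adjusted p = 0.0295), against 9.95% of all genes. With RPAP3, 0 of 4 were called by edgeR (1 at an unadjusted p under 0.05), against 0.46% of all genes, and MVP was -0.15 ± 0.14. The list's median after puromycin was 0.16 with RUVBL1 and 0.15 with RPAP3, against 0.00 over all genes in both. Its values ran from -2.07 to 1.71 with RUVBL1 and from -0.15 to 0.87 with RPAP3. After CB-6644, TEP1 was again the 1 called, 20% against 1.87% of all genes. After both drugs 0 of 5 were, with 1 at an unadjusted p under 0.05 by edgeR.

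Of 21 telomerase and telomere genes, 20 were tested with RUVBL1. TEP1 was the 1 called higher in untreated cells and after CB-6644, where the share was 5% against 1.87% of all genes. After both drugs 0 were called, with 1 at an unadjusted p under 0.05 by edgeR. After puromycin 3 were called higher and 1 lower, 15.0% and 5.00% against 9.95% and 3.82% over all genes, with a list median of 0.05. The 3 were TEP1, CTC1 (1.17 ± 0.35, adjusted p = 0.0333), which binds the single-stranded telomere end in the CST complex, and SMG6 (0.73 ± 0.23, adjusted p = 0.0346), an endonuclease of nonsense-mediated decay. NOP10, of the box H/ACA core that telomerase shares, was lower (-1.005 ± 0.264, adjusted p = 0.0135). With RPAP3, 3 of 19 were called higher in untreated cells, 15.8% against 1.53% of all genes. They were TEP1, TERC (1.06 ± 0.14), the telomerase RNA, and CTC1 (0.82 ± 0.14). TEP1 was chosen on this comparison, which partly fixes the share. After puromycin 1 was called higher, TERC (1.28 ± 0.14, adjusted p = 2.26e-05), 5.26% against 0.46% of all genes.

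The small-subunit processome, the particle in which PDCD11 works on the ribosomal RNA precursor, was followed through 52 genes, 51 of them tested. With RUVBL1, PDCD11 was the 1 called higher in untreated cells, which follows from its choice. After puromycin 7 were called higher and 0 lower, 13.7% higher against 9.95% over all genes, while the list's median was -0.02. They did not include PDCD11. NOL6 (1.71 ± 0.31, adjusted p = 0.000983), TBL3 (1.36 ± 0.24, adjusted p = 0.000689) and RRP12 (1.31 ± 0.22, adjusted p = 0.000561) had the smallest p, all of them assembly factors of the small ribosomal subunit. Their untreated enrichments with RUVBL1 were 0.23, 0.14 and -0.07. After CB-6644 1 was called, MPHOSPH10 (1.33 ± 0.25, adjusted p = 0.0055), a processome protein, 1.96% against 1.87% of all genes. After both drugs 0 were, with 4 at an unadjusted p under 0.05 by edgeR. With RPAP3, 3 of 51 were called higher in untreated cells, 5.88% against 1.53% of all genes. They were PDCD11 and, chosen after their values were seen, BMS1 (0.83 ± 0.13), a GTPase of the processome, and DDX10 (0.61 ± 0.13), an RNA helicase. PDCD11 was chosen on this comparison, which partly fixes the share. After puromycin 0 of 51 were called with RPAP3 by edgeR, 5 had an unadjusted p under 0.05, and the median was 0.03. The difference between baits after puromycin was called for 4, all higher with RUVBL1 (7.84% against 4.45% over all genes in either direction).

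The ATR checkpoint and origin-firing list, in which TOPBP1 works, had 32 genes, all tested. TOPBP1 was the 1 called higher in untreated RUVBL1 cells. Its untreated calls with either bait follow from its choice. After puromycin 4 were called higher and 2 lower with RUVBL1, 12.5% and 6.25% against 9.95% and 3.82% over all genes, around a median of -0.14. The shares of this list and of the telomere, processome and BRCT lists were thus near those of all genes. RECQL4, a helicase of origin firing, was highest (1.77 ± 0.27, adjusted p = 0.000245), followed by SLX4 (0.94 ± 0.26, adjusted p = 0.0191), a nuclease scaffold, and RPA1 (0.88 ± 0.25, adjusted p = 0.0222), which coats single-stranded DNA. The others, named after their values were seen, were TIMELESS (0.76), ETAA1 (-0.91), which is the other activator of ATR, and RPA3 (-0.81). After CB-6644 0 were called by edgeR, with 9 at an unadjusted p under 0.05. After both drugs 1 was, 3.12% against 0.557% of all genes. It was RAD50 (1.51 ± 0.27, adjusted p = 0.0044), of the MRN complex that senses DNA breaks. With RPAP3, TOPBP1 was the 1 called higher in untreated cells and NBN, another MRN protein, the 1 called lower (-0.76). After puromycin RAD50 was the 1 called with RPAP3 (1.24 ± 0.13, adjusted p = 2.26e-05), against -0.15 ± 0.27 with RUVBL1. The share with RPAP3 was 3.12%, against 0.46% of all genes.

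Among 21 genes of BRCT-domain proteins, 20 tested, TOPBP1 was the 1 called higher in untreated RUVBL1 cells, which follows from its choice. After puromycin 3 were called higher with RUVBL1 and 0 lower, 15.0% higher against 9.95% over all genes, with a median of 0.17. These were CTDP1 (0.94 ± 0.21, adjusted p = 0.00444), a phosphatase of the RNA polymerase II tail, LIG3 (0.73 ± 0.23, adjusted p = 0.0362), a DNA ligase, and POLL (0.69 ± 0.23, adjusted p = 0.0469), a repair polymerase. CTDP1 was also the 1 called after CB-6644 (0.95 ± 0.21, adjusted p = 0.019), 5% against 1.87% of all genes. With RPAP3, 2 were called higher in untreated cells, 10% against 1.53% of all genes, and 1 lower, NBN. The 2 were TOPBP1 and SLF1 (1.57 ± 0.18, named after its value was seen), a scaffold of DNA repair. TOPBP1 was chosen on this comparison, which partly fixes the share. After puromycin 0 of 20 were called with RPAP3 by edgeR, with 1 at an unadjusted p under 0.05. Of 4 R2TP genes, the RPAP3 mRNA was the 1 called after CB-6644 (2.52 ± 0.45, adjusted p = 0.0139), 25% against 1.87% of all genes. Its GFP libraries were unequal (236 ± 136 CPM), and its enrichment ran from 1.73 to 3.02 over the alternatives. The list genes with the smallest p, up to 4 a list, had 25 calls in the tested comparisons, RPAP3 after CB-6644 among them. Other called list genes were not followed over the alternatives. Of the 25, 5 held in every alternative: RECQL4, NOL6, RRP12 and TBL3 after puromycin with RUVBL1, and RAD50 after puromycin with RPAP3. The other 20 missed the threshold in at least 1, and 10 of those only when a single library was left out.

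**Figure D4:**
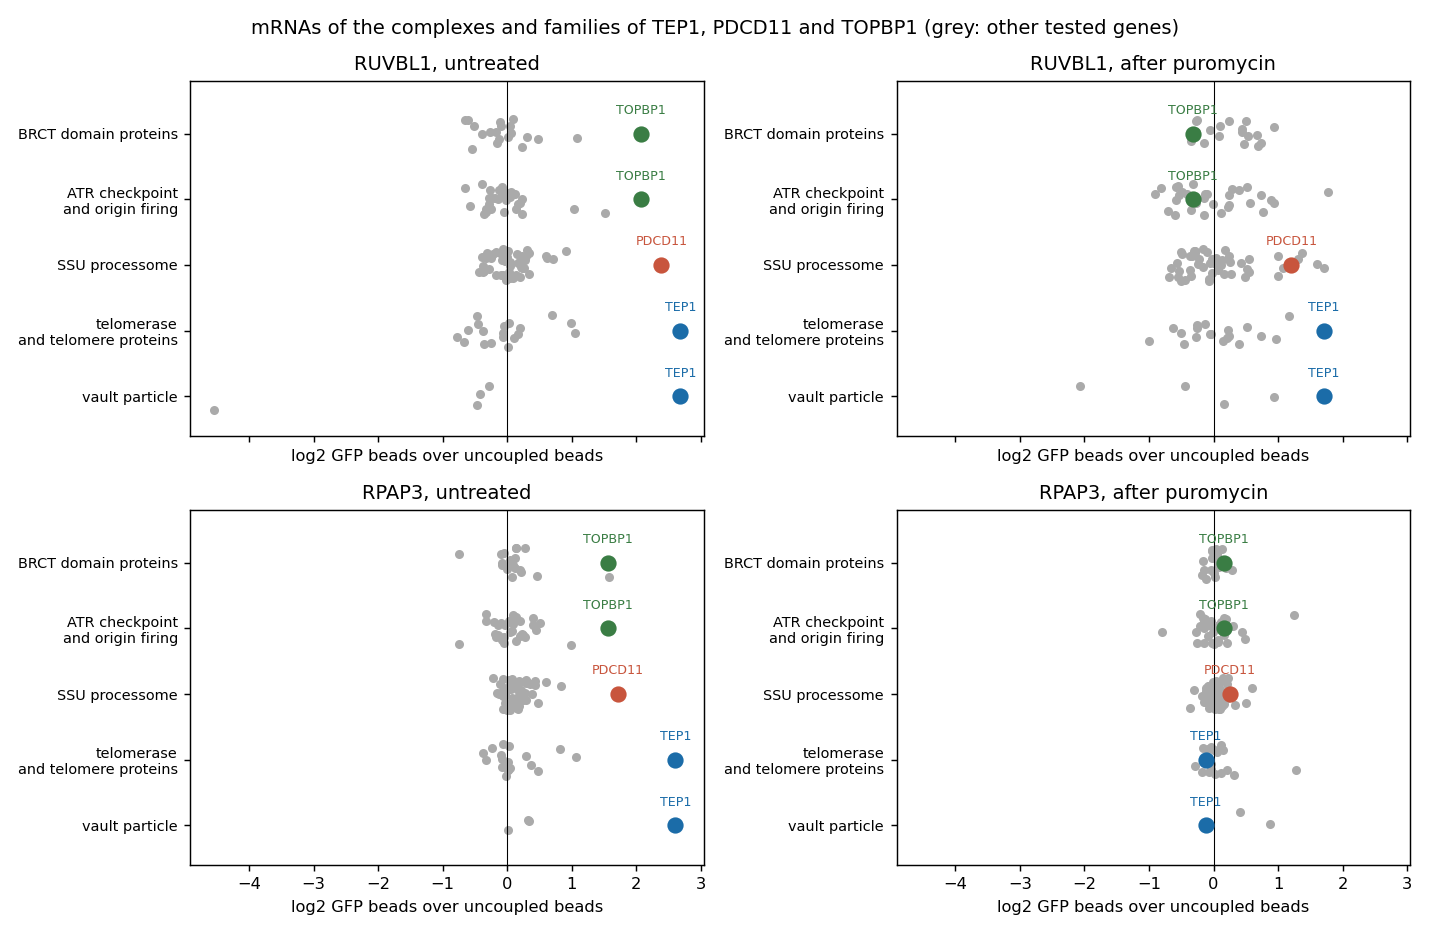
Enrichment (log2 of GFP beads over uncoupled beads) of every tested gene of the 5 lists in untreated cells and after puromycin, RUVBL1 above and RPAP3 below. Grey points are single genes, spread vertically for sight only. In untreated cells, on which TEP1, PDCD11 and TOPBP1 were chosen, they lie to the right of nearly all genes of their lists. After puromycin with RPAP3 they lie between -0.12 and 0.25.

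The mRNAs whose pattern over the groups was most like each of the 3 were found by Pearson's r over the 12 group means of log2 CPM, centred within each line, among 10901 genes of at least 5 CPM. Points of 1 line share treatments and bead types, so these are descriptions with no p. The 12 groups include the untreated ones on which the 3 mRNAs were chosen. Of the 5 nearest genes of each given next, all but TTLL4 were among the 37 called higher with both baits in untreated cells. The likeness is therefore partly set by that choice. TEP1 was closest to USP36 (0.966), INO80 (0.965), SRCAP (0.964), PHLPP1 (0.959) and TTLL4 (0.954). USP36 is a nucleolar deubiquitinase, and INO80 and SRCAP are the ATPases of chromatin remodelling complexes that hold RUVBL1 and RUVBL2. PDCD11 was closest to TYK2 (0.980), a cytokine-receptor kinase, GTF3C1 (0.980), the largest subunit of TFIIIC, SYNJ2 (0.976), RGS3 (0.937) and SFI1 (0.925). TOPBP1 was closest to POLR2B (0.939), the second-largest subunit of RNA polymerase II, BRD8 (0.937), of the TIP60 complex, PRPF8 (0.928), a core protein of the spliceosome, AGO3 (0.914) and EP400 (0.911), the ATPase of TIP60. With this centring no gene was among the 5 nearest of more than 1 of the mRNAs, and none of the 3 was among another's 5. Between them r was 0.870 for PDCD11 and TEP1, 0.839 for TOPBP1 and PDCD11 and 0.829 for TOPBP1 and TEP1. Without centring, 3 of 5 nearest genes were shared with the list above for TEP1, 3 for PDCD11 and 4 for TOPBP1. YTHDC2 was then among the 5 nearest of both PDCD11 (0.924) and TEP1 (0.947), and EP400 among those of TEP1 (0.956).

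For the 2 nearest genes of each, enrichment after puromycin with RUVBL1 is given beside that of the mRNA they resemble, a likeness that the choice by pattern partly fixes. TYK2 (1.28 ± 0.30) and GTF3C1 (1.31 ± 0.41) had an enrichment close to that of PDCD11 (1.21). INO80 (0.86 ± 0.25) and USP36 (0.73 ± 0.23) lay below that of TEP1 (1.71). POLR2B, at 3.57 ± 0.33 in untreated cells, was 0.20 ± 0.30 after puromycin and BRD8, at 3.19 ± 0.26 in untreated cells, was 0.18 ± 0.24, beside -0.32 for TOPBP1. With RPAP3 after puromycin these 6 genes ran from -0.11 ± 0.13 for POLR2B to 0.44 ± 0.16 for GTF3C1.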

How the data were processed

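The values deposited by the authors are unnormalized read counts, 1 row a gene and 1 column a library. Alignment to hg38 and counting used TopHat2 2.1.1 and featureCounts 2.0.3, as listed in the submitters' processing notes. The kit kept the strand, per the labels' protocols. The strand setting used for counting and the treatment of multi-mapping reads are not given in the sources used here, and PCR copies were not separated. Of 28307 genes 517 had no gene ID and were kept.

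Groups came from the labels. The 16 RUVBL1 libraries (15976 genes tested, biological coefficient of variation 0.263), the 8 RPAP3 libraries (15202 genes, 0.142) or, for a difference between lines, all 24 (16695 genes, 0.229) were fitted with edgeR 4.0.16 in R 4.3.3 (filterByExpr, TMM, robust quasi-likelihood) without a replicate term, after a check on simulated data. Replicates of a group differed by more than sampling noise, so none were merged. DESeq2 1.42.0 was an alternative. The SE is the absolute log2 value divided by the root of the F statistic. The mRNAs and the lists were chosen with earlier results of these data known. Beyond the 3 mRNAs, up to 4 called genes of each list with the smallest p are named, and the 5 genes most like each mRNA. A list by protein length was not made, since protein lengths were not used here.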

Additional observations from a re-analysis of the deposited data

Results flagged for a closer look

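For 7 of 127 distinct tested genes of the 5 lists (5.51%, against 4.45% of all genes) the enrichment after puromycin differed between the baits by the interaction test of edgeR over all 24 libraries (n = 2 against 2 in each line). Higher with RUVBL1 than with RPAP3 were RECQL4 (1.64 ± 0.32, adjusted p = 0.0032), NOL6 (1.59 ± 0.39, adjusted p = 0.0177), NOP9 (1.56 ± 0.42, adjusted p = 0.0335), TBL3 (1.39 ± 0.29, adjusted p = 0.00551), RRP12 (1.01 ± 0.28, adjusted p = 0.0301) and CTDP1 (0.99 ± 0.27, adjusted p = 0.0292). Lower with RUVBL1 was RAD50 (-1.36 ± 0.33, adjusted p = 0.0167). The enrichments of RAD50 were -0.15 with RUVBL1 and 1.24 with RPAP3, and those of TBL3 were 1.36 and 0.01. Each of these differences other than that of NOP9, for which alternatives were not run, kept its direction in all 16 alternatives and missed the threshold in at least 1, with a highest adjusted p of 0.0697 for RECQL4 and 0.236 for RRP12.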

How the results depend on the processing

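Of the 3 mRNAs, the number called after puromycin with RUVBL1 was 1 (TEP1). It was 0 with upper-quartile scaling, total-count scaling or a replicate block (TEP1 adjusted p = 0.0582) and with any single library left out (0 to 0). It was 2 (PDCD11 added) with no filter on low counts, DESeq2, only the compared libraries or all 24. After CB-6644 it was 1 (TEP1). It was 0 with a replicate block (adjusted p = 0.0541), with only the compared libraries (0.175) or, an alternative chosen after seeing the data, without the libraries that stand apart (TEP1 1.67, adjusted p = 0.145), and 0 to 1 with single libraries left out. It was 2 with total-count scaling and 3 with no filter, DESeq2 or all 24 libraries. After both drugs it was 0, and 1 (PDCD11, 0.83, adjusted p = 0.0234) with only the compared libraries. After puromycin with RPAP3 it was 0 in all 12 alternatives, and for the effect of each drug in the presence of the other it was 0 in all 17. For the difference between baits it was 0, then 1 with no filter (PDCD11), 1 with DESeq2 (TEP1) and 2 with only the compared libraries. The causes were not tested.

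Replicate numbers showed no steady pairing of the libraries. Deviations of same-numbered libraries correlated at -0.412 to 0.270 (median 0.038) over 28 pairs of RUVBL1 groups. Over 6 pairs of RPAP3 groups it was -0.117 to 0.159 (median 0.017). Some pairs did correlate, so this check cannot show that the libraries were unpaired. With a replicate block, calls over all genes rose from 2201 to 2559 after puromycin with RUVBL1 and from 70 to 104 with RPAP3. The replicate block changed no other call of the 3. Directions that turned were TEP1 after puromycin with RPAP3 (0.24 without uncoupled replicate B, and -0.42 to 0.24 over single libraries), and, without replicate 1 of the untreated RUVBL1 GFP beads, the puromycin change of PDCD11 (0.022, range -1.83 to 0.022) and the CB-6644 change of TEP1 (0.44, range -1.02 to 0.44). Calls over all genes were 2201 after puromycin with RUVBL1 (307 to 4915 over the alternatives), 387 after CB-6644 (12 to 3554), 89 after both drugs (18 to 333), 70 after puromycin with RPAP3 (12 to 136) and 743 between baits (81 to 3435). They were 8 for puromycin added to CB-6644 (4 to 161) and 17 for CB-6644 added to puromycin (7 to 699). With 2 libraries a group, the fit's SE of 0.29 to 0.49 after puromycin with RUVBL1 limits what could be called.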
